A study of Mus musculus with 12 samples.

Results

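The 10 genes described here make up the insulin-like growth factor (IGF) axis of the liver as it was listed for this work: the 7 IGF binding proteins *Igfbp1* to *Igfbp7*, the ligand gene *Igf1*, *Igfals*, which encodes the acid-labile subunit, and *Ghr*, the growth hormone receptor. They were picked by symbol from a table of 23849 gene symbols, all 10 were found in it, and all 10 passed the minimum mean of 1 FPKM (a level in sequenced fragments, scaled for transcript length and library size) that left 9806 symbols for testing. The libraries came from the livers of male mice of C57BL/6J background, given as 8 weeks old and all on a high-fat diet (HFD), so that no group on a normal diet is analysed here. The study describes 4 weeks of HFD before the 2 weeks of treatment. Whether the given age is that at harvest is not known. Over 2 weeks the mice received either Libramed, the product that the study's methods describe as formulated Policaptil Gel Retard, a gel-forming fiber blend given once a day by gavage, or vehicle, which was drinking water given the same way. Livers were taken at ZT0 (lights on) or at ZT12 (lights off), with 3 mice in each of the 4 groups and 12 libraries in all. The groups were vehicle ZT0, Libramed ZT0, vehicle ZT12 and Libramed ZT12. The study's methods place the gavage shortly before lights off. Time of harvest therefore cannot be told apart from time since the last gavage.

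IGF1 is made mainly by hepatocytes under the control of growth hormone and circulates bound to IGF binding proteins, which set how much of it reaches its receptor. Most of it travels in a complex of IGF1, IGFBP3 or IGFBP5 and the acid-labile subunit, while IGFBP1 and IGFBP2 form smaller complexes whose plasma levels follow the nutritional state. The study singled out *Igfbp2* from these same libraries, so its treatment values given here are no independent evidence of its response. It also measured liver *Igfbp2* by qRT-PCR and IGFBP2 in serum, and reported both as higher with the product on HFD. Neither measurement is analysed here. What follows describes how *Igfbp2* compared with its relatives in the same mice, which is not independent of that choice either.

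In the GRCm38 annotation, *Igfbp2* lies on the plus strand at chr1:72824503-72852474 and its longest coding transcript has 4 exons. *Igfbp5* faces it from the minus strand across a gap of 5457 bp. *Igfbp1* (chr11:7197782-7202546, plus strand) and *Igfbp3* (chr11:7206086-7213923, minus strand) form a second such convergent pair, with 3539 bp between them, and *Igfbp4* lies elsewhere on the same chromosome at chr11:99041244-99054392. The 250 bases before the RefSeq transcription start (GRCm38.p6) are shown for *Igfbp2* and *Igfbp4*, the most abundant binding protein transcripts, for *Igfbp3*, whose log2 difference between the times over both treatments was the largest of the 10, and for *Igfbp1*, the neighbour of *Igfbp3*. Capitals mark matches on either strand to 4 motifs: the E-box CACGTG bound by clock and other basic helix-loop-helix factors, the GC box GGGCGG, the insulin response core CAAAACA and the TATA box TATAAA. None of these 4 motifs overlapped another where they matched.
Igfbp2, chr1:72824230-72824479, plus strand: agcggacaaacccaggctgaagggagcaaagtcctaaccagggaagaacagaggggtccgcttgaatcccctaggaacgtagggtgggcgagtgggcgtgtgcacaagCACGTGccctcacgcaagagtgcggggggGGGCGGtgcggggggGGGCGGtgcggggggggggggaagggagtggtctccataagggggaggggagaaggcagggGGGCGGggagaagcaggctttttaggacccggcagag
Igfbp4, chr11:99040994-99041243, plus strand: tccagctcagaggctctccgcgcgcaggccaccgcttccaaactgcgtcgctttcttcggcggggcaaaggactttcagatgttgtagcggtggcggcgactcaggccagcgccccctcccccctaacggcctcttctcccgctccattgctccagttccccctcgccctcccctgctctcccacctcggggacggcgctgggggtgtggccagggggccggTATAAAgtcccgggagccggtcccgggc
Igfbp3, chr11:7213924-7214173, minus strand: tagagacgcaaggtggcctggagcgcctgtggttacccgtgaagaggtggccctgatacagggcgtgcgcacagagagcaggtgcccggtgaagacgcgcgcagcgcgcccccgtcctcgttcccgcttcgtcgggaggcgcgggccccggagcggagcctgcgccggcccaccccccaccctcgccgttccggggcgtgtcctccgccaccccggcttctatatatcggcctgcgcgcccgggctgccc
Igfbp1, chr11:7197537-7197786, plus strand: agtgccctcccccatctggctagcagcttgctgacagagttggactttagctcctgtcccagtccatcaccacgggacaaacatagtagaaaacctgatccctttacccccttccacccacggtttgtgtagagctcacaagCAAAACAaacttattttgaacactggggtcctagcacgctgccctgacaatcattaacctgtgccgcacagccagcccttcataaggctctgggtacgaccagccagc
The *Igfbp2* window held 1 E-box, 142 bases before the start, and 3 GC boxes at 113, 98 and 37 bases. Among 32851 RefSeq windows of the same length, 6.02% held CACGTG and 32.7% held GGGCGG. The window of the second *Igfbp2* start that RefSeq lists held none of the 4 motifs. *Igfbp4* had a TATA box 28 bases before its start (in 12.4% of all windows), *Igfbp1* had the CAAAACA core at 108 bases (5.56% of all windows), and the *Igfbp3* window held none of these letters. A match is a description of sequence only, and binding was not measured.

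The mean levels of the 10 genes ran from 2.89 to 1091 FPKM. FPKM scales for transcript length, so levels can be set side by side. *Igfbp4*, an inhibitory binding protein released from IGF by pregnancy-associated plasma proteins, was the highest with a mean of 1091 FPKM over the 12 libraries, and *Igfbp2* followed with 456 FPKM. *Ghr* (189 FPKM) and *Igf1* (179 FPKM) came next and could not be ordered, since *Ghr* was the higher of them in 9 of 12 libraries. *Igfals* had 107 FPKM, *Igfbp7* 52.2 FPKM and *Igfbp1* 25.8 FPKM, and each of these neighbours kept its order in 12 of 12 libraries. *Igfbp3*, *Igfbp6* and *Igfbp5* lay at 3.54, 3.51 and 2.89 FPKM and were not separable, *Igfbp3* being above *Igfbp6* in 5 of 12 libraries and *Igfbp6* above *Igfbp5* in 8 of 12. IGFBP3 carries most circulating IGF1, yet its transcript was here among the lowest of the family in whole liver.

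**Figure D1:**
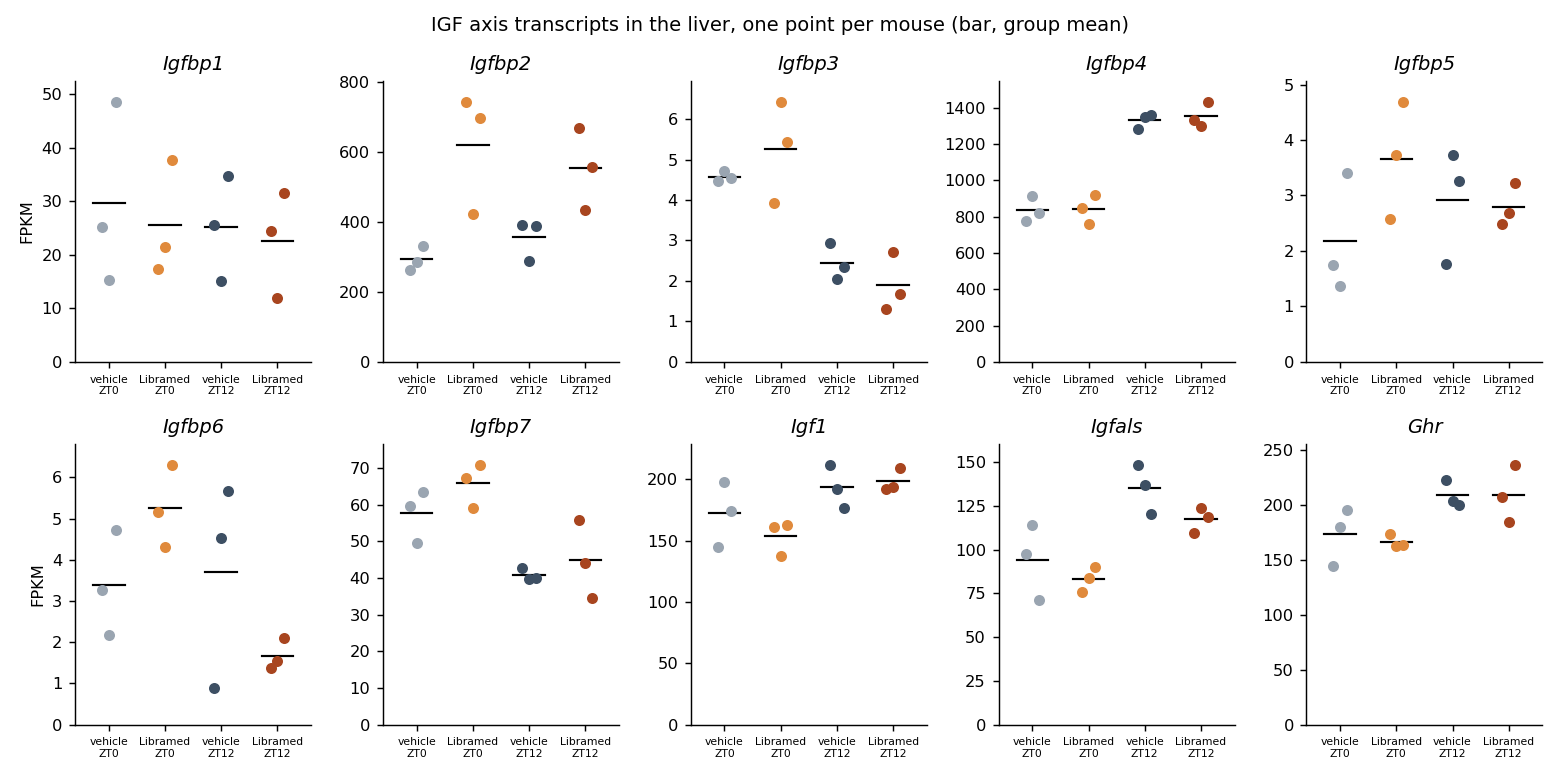
FPKM of the 10 genes (y axes, linear and starting at 0, each gene with its own scale) in the 4 groups (x axes), with 1 point per mouse and a black bar at the group mean. The 6 Libramed points of Igfbp2 all lie above its 6 vehicle points, whereas Igfbp4 and Igfbp3 separate by time of harvest.

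The libraries behind these values had FPKM sums of 634683 to 759355, and 14581 to 15264 symbols were above 0. The read totals are unknown, but the step size of the lowest values put relative depth at 0.714 to 1.28 times that of vehicle ZT0 replicate 1. All 6 clock genes used to check the time labels (*Dbp*, *Per1*, *Per2* higher at ZT12, *Nr1d1*, *Arntl*, *Clock* lower) passed adjusted p under 0.05 in both treatments by limma. Of 7 hepatocyte markers, *Alb* was listed at 0 in all libraries and the other 6 were abundant. A 0 in this table can be a failed estimate and need not mean that the transcript was absent. 1 pancreas marker out of 5 and 2 adipocyte markers out of 5 reached the minimum of 1 FPKM. These are whole-liver libraries, so that fewer cells of a type and less RNA per cell cannot be told apart.

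*Igfbp2* had the largest log2 treatment difference of the 10 genes at ZT0 and over both times, while at ZT12 that of *Igfbp6* was as large in the other direction (-0.63 against 0.63) in groups that overlapped. At ZT0 the 3 vehicle mice had 262, 286 and 333 FPKM and the 3 Libramed mice 744, 421 and 697 FPKM. At ZT12 the vehicle mice had 392, 288 and 389 FPKM and the Libramed mice 669, 435 and 557 FPKM. The groups did not overlap at either time, and the lowest Libramed mouse of the series (421 FPKM) was above the highest vehicle mouse (392 FPKM). Such a separation of 6 mice from 6 was found for 0.398% of the symbols tested, that is 39 of 9806, and for 1 of the 10 genes.

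Group means of *Igfbp2* were 293 ± 35.9 FPKM (SD, n = 3) with vehicle and 621 ± 174 FPKM with Libramed at ZT0, a ratio of 2.12. They were 356 ± 59.4 and 553 ± 117 FPKM at ZT12, a ratio of 1.55. On the log2(FPKM + 1) scale the difference was 1.04 at ZT0 (SE 0.22, limma adjusted p = 0.324) and 0.63 at ZT12 (SE 0.19, limma adjusted p = 0.729), with a two-sided exact permutation p of 0.1 each time, the smallest that 3 against 3 allows. Over both times it was 0.83 (SE 0.16, 95% interval 0.48 to 1.19), with an unadjusted limma p of 0.000241 and an adjusted p of 0.215, and the exact permutation p within times was 0.005, the smallest possible. *Igfbp2* thus did not pass the adjusted threshold of 0.05 by limma, although it ranked 11th of 9806 by p over both times. A version of the Cyber-T test, the kind of test the study used, was also run. By Cyber-T the ZT0 difference passed after adjustment (adjusted p = 0.00838, with 0.704% of all symbols called). The ZT12 difference did not pass after adjustment (adjusted p = 0.215). Without adjustment the Cyber-T p was under 0.05 at both times, at 1.97e-05 for ZT0 and 0.00178 for ZT12. So were those of 8.6% and 6.73% of all symbols. The study's legends name no adjustment for their Cyber-T threshold, so the adjusted calls given here are not on the same footing. The treatment differences at the 2 times did not differ detectably. On the log2 scale the interaction was -0.42 (SE 0.32, 95% interval -1.11 to 0.28, limma adjusted p = 0.859). The exact permutation p was 0.515, but that test shuffled labels without first removing the treatment difference common to both times. It is therefore no sound test of the *Igfbp2* interaction.

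The summed hepatocyte markers moved with the treatment too. Their summed level, with *Alb* at 0, was 31280 to 35300 FPKM with vehicle and 36690 to 45490 FPKM with Libramed at ZT0, and 30260 to 33700 against 34290 to 41600 FPKM at ZT12. *Apoa1*, the gene of the main HDL apolipoprotein, made up most of that sum. *Ttr* and *Ass1* also had higher means with Libramed at both times. *Apob* had lower ones (269.7 against 291.7 FPKM at ZT0 and 228.5 against 282.4 FPKM at ZT12). At ZT0 *Serpina1c* was lower too (2532 against 2671 FPKM) and *Cps1* averaged 463 FPKM in both groups, while at ZT12 both genes were higher with Libramed. None of the 6 markers tested passed adjusted p under 0.05 for treatment by limma. Over both times 3 were higher and 1 lower at an unadjusted p under 0.05, against 10.1% of all symbols. The 7 Kupffer cell markers summed to 38.5 to 45.5 FPKM with vehicle and 21.7 to 36.1 FPKM with Libramed at ZT0, and overlapped at ZT12 (19.3 to 51.5 against 25.2 to 39.0 FPKM). The 5 bile duct markers summed to 40.9 to 53.3 FPKM with vehicle and 28.5 to 44.4 FPKM with Libramed at ZT0, and to 41.5 to 43.8 against 26.4 to 38.5 FPKM at ZT12. Most of the bile duct sum was *Spp1* (39.8 FPKM of 45.6 FPKM on average in vehicle ZT0), and *Krt19* had a higher mean with Libramed at ZT0 (2.40 against 1.53 FPKM) as did *Sox9* at ZT12 (1.081 against 0.767 FPKM). The part of these shifts in the *Igfbp2* values was not tested.

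By limma with Benjamini-Hochberg adjustment, 0 of the 10 genes passed at ZT0 (0% of all symbols), 0 at ZT12 (0%) and 0 over both times (0.0204% of all symbols). At an unadjusted p under 0.05 there were 2 at ZT0 (*Igfbp2* and *Igfbp6*; 9.23% of all symbols), 1 at ZT12 (*Igfbp2*; 6.74%) and 1 over both times (*Igfbp2*; 10.1%). For the interaction, 0 of the 10 genes passed (0% of all symbols) and 0 had an unadjusted p under 0.05 (6.63%). Cyber-T called 1 of the 10 genes at ZT0, which was *Igfbp2*, and 0 at ZT12, where it called 0.235% of all symbols. At an unadjusted p under 0.05 it gave 3 of the 10 at ZT0 (8.6% of all symbols) and 2 at ZT12 (6.73%). Groups that did not overlap were seen for 1 of the 10 genes at each time, against 15.1% of all symbols at ZT0 and 13.1% at ZT12. Over both times the other 9 genes lay between -0.18 and 0.29 on the log2 scale with a median of -0.04, beside a median of -0.02 over all symbols tested.

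*Igf1*, the ligand, was at 145, 197 and 174 FPKM in vehicle mice at ZT0, where the Libramed mice gave 161, 137 and 163 FPKM. At ZT12 the vehicle values were 212, 192 and 176 FPKM, beside 192, 194 and 209 FPKM for Libramed. The groups overlapped at both times, and the treatment difference over both times was -0.06 on the log2 scale (95% interval -0.24 to 0.13, limma adjusted p = 0.841). *Ghr*, through which growth hormone drives *Igf1* transcription, differed by -0.02 (95% interval -0.20 to 0.15, limma adjusted p = 0.937). *Igfals* differed by -0.18 (95% interval -0.40 to 0.04, limma adjusted p = 0.568), and its values overlapped between treatments at both times.

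*Igfbp4* was the most tightly measured binding protein, with a treatment difference of 0.02 on the log2 scale over both times and a 95% interval of -0.12 to 0.16. That of *Igfbp7*, which binds IGF weakly and is abundant in endothelium, was 0.15 (95% interval -0.08 to 0.38). *Igfbp1*, whose transcription is repressed by insulin, varied widely between mice of a group, from 15.3 to 48.6 FPKM in vehicle ZT0 alone. Its treatment difference of -0.16 therefore had a 95% interval of -0.84 to 0.53, which would also hold a change as large as the lower bound for *Igfbp2*. *Igfbp3* (-0.06), *Igfbp5* (0.29) and *Igfbp6* (-0.04) likewise had 95% intervals that included 0.

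For *Igfbp6*, which prefers IGF2 over IGF1, the treatment differences at the 2 times pointed in opposite directions, 0.54 at ZT0 (limma adjusted p = 0.538) and -0.63 at ZT12 (limma adjusted p = 0.766). The vehicle ZT12 mice spread from 0.892 to 5.67 FPKM, and the interaction was -1.18 (SE 0.55, limma adjusted p = 0.755, exact permutation p = 0.095). *Igfbp5*, a binding protein with affinity for extracellular matrix, gave 0.58 at ZT0 (limma adjusted p = 0.564) and -0.01 at ZT12 (limma adjusted p = 0.99). Neither pair of values was shown to differ between the times.

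**Figure D2:**
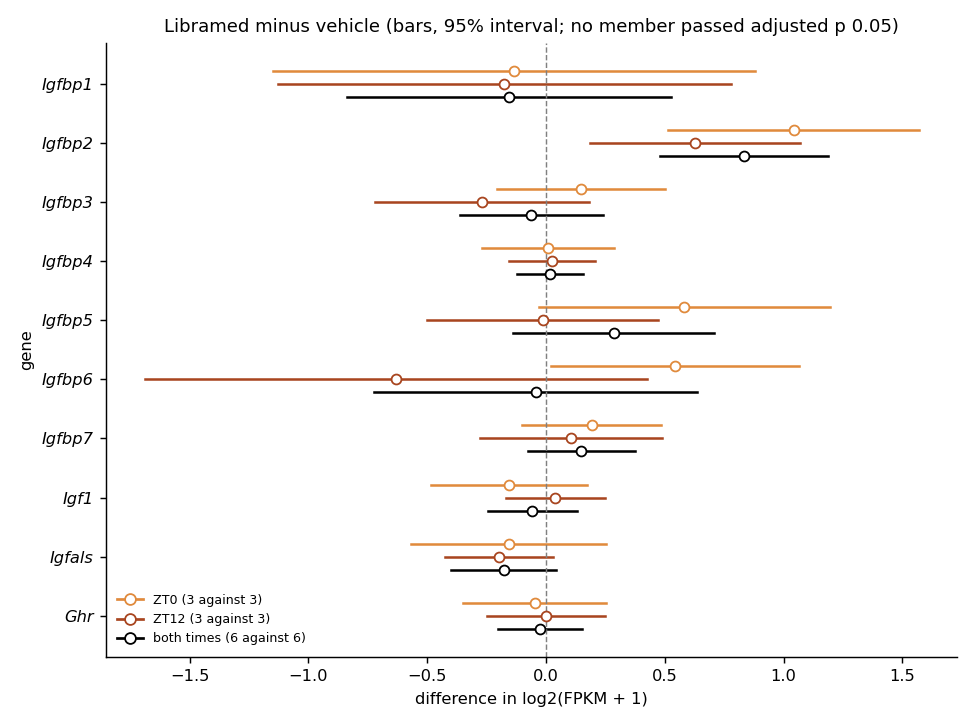
Libramed minus vehicle for each gene as a difference in log2(FPKM + 1) (x axis), at ZT0, at ZT12 and over both times, with bars for the 95% interval from limma. Igfbp2 is the gene whose 3 intervals all lie above 0 (0.48 to 1.19 over both times), and open circles mark that no gene passed an adjusted p of 0.05.

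**Figure D3:**
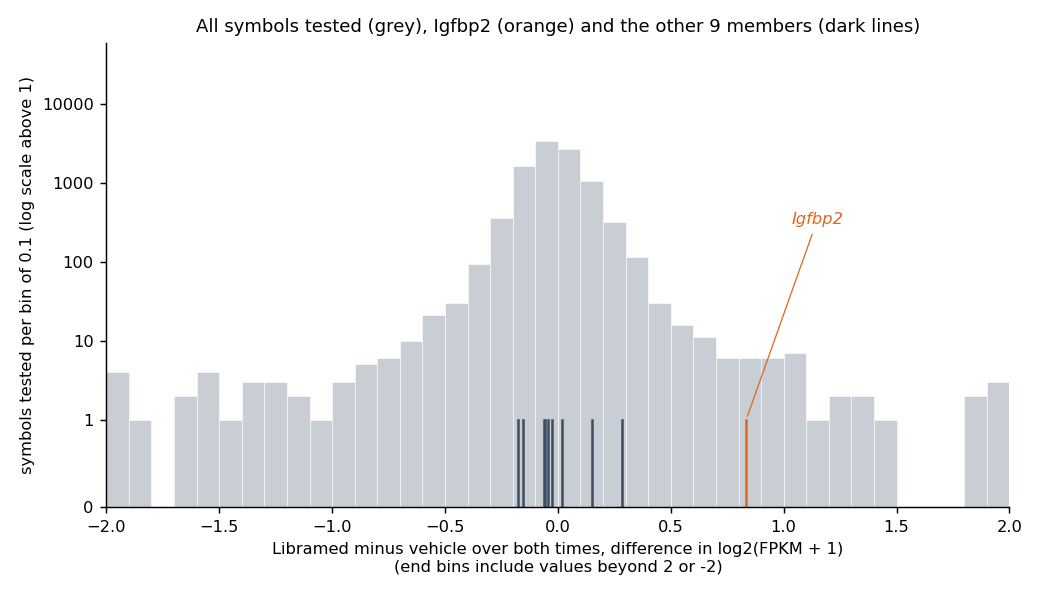
Number of symbols (y axis, log scale above 1) by Libramed minus vehicle over both times in log2(FPKM + 1) (x axis, bins of 0.1, with values beyond 2 or -2 counted in the end bins), for all 9806 symbols tested, with short lines for the 10 genes. Igfbp2 lies at 0.83 and the other 9 genes lie between -0.18 and 0.29, beside a 5th to 95th percentile of -0.21 to 0.21 for all symbols, which Igfbp5 (0.29) exceeds.

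A ratio taken within a library compares *Igfbp2* with each relative in the same mouse. The log2 ratio of *Igfbp2* to the other gene was higher with Libramed for all 9 relatives, by 0.55 (*Igfbp5*) to 1.01 (*Igfals*) over both times. The exact permutation p within times, two-sided and not adjusted for the 9 pairs, was 0.005 for *Igfbp4*, *Igfbp7*, *Igf1*, *Igfals* and *Ghr*, the smallest possible. It was 0.015 for *Igfbp1* and *Igfbp3*, 0.04 for *Igfbp6* and 0.095 for *Igfbp5*. *Igfbp2* had been singled out from these same libraries, so the ratios largely restate its own difference and their p are no independent evidence. The Libramed and vehicle mice did not overlap in this ratio at either time for the 5 genes at 0.005, and overlapped at both times for *Igfbp5* and *Igfbp6*. *Igfbp2* by itself separated the 6 Libramed from the 6 vehicle mice. The share of all symbols whose ratio would separate them was not counted, so the 5 are no result about the family. All 9 ratios share the *Igfbp2* values, so that they are not 9 separate results, and the p for *Igfbp6* was over 0.05 in 9 of the 12 tests that left out 1 library (0.01 to 0.12 in all), the exceptions being those without vehicle ZT0 replicate 2, Libramed ZT0 replicate 2 or vehicle ZT12 replicate 1.

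The ratio of *Igfbp2* to *Igfbp4* shows the size of this shift among the abundant binding proteins. It was 0.338, 0.313 and 0.406 in the vehicle mice and 0.878, 0.554 and 0.758 in the Libramed mice at ZT0. At ZT12 it was 0.306, 0.214 and 0.286 with vehicle and 0.501, 0.335 and 0.389 with Libramed. Relative to *Igf1*, *Igfbp2* stood at 1.72 ± 0.243 (SD, n = 3) with vehicle and 3.98 ± 0.807 with Libramed at ZT0, and at 1.85 ± 0.352 and 2.79 ± 0.629 at ZT12.

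As a share of the summed FPKM of the 7 binding proteins, *Igfbp2* made up 22.5% to 26.1% in vehicle ZT0 and 33.0% to 44.1% in Libramed ZT0 mice. The shares were 16.9% to 22.4% in vehicle ZT12 and 24.2% to 32.0% in Libramed ZT12 mice. *Igfbp2* and *Igfbp4* together held 90.2% to 96.5% of the sum in every library. The sum without *Igfbp2* was 933 ± 58.2 FPKM with vehicle and 948 ± 94.5 FPKM with Libramed at ZT0 and 1405 ± 43.9 and 1428 ± 72.4 FPKM at ZT12. The treatment differences in this sum were smaller than its SD between mice.

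**Figure D4:**
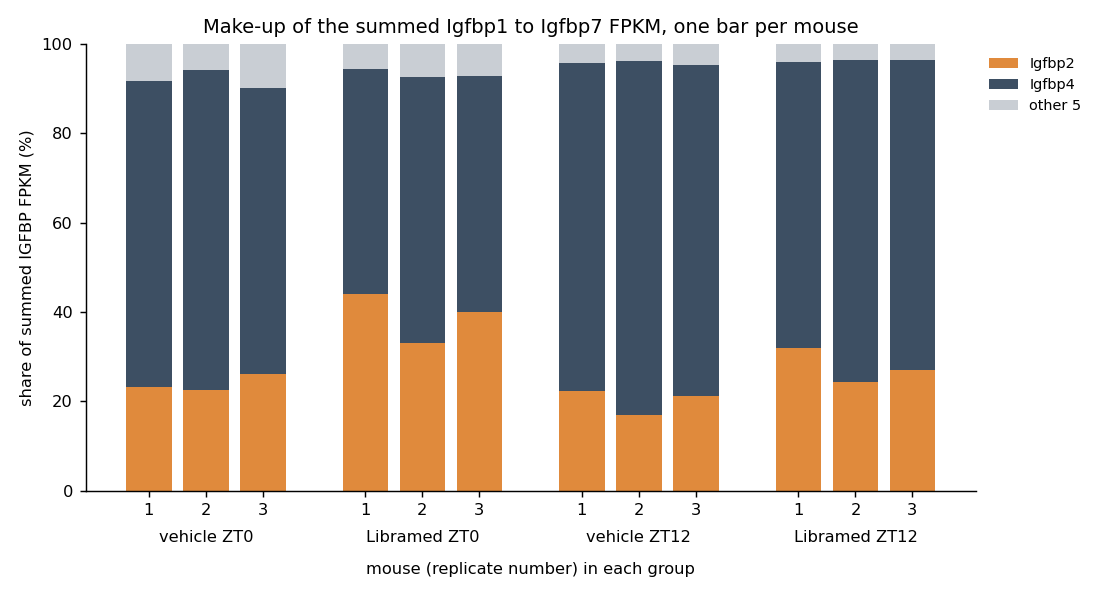
Share of the summed FPKM of Igfbp1 to Igfbp7 (y axis, percent) in each of the 12 mice (x axis, 3 per group), split into Igfbp2, Igfbp4 and the other 5. The Igfbp2 part is 33.0% to 44.1% in Libramed ZT0 against 22.5% to 26.1% in vehicle ZT0, and the Igfbp4 part is larger at ZT12.

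Time of harvest, which goes together with time since gavage, separated the family in another way. By limma, 6 of the 10 genes passed adjusted p under 0.05 between ZT12 and ZT0 over both treatments, against 29.7% of all symbols tested: *Igfbp4*, *Igf1*, *Igfals* and *Ghr* were higher at ZT12 (15.9% of all symbols were called higher) and *Igfbp3* and *Igfbp7* lower (13.8%). With vehicle 3 genes were called against 10.4% of all symbols, and with Libramed 5 against 12.4%. Cyber-T called 4 of the 10 genes with vehicle (14.1% of all symbols), adding *Igfals*, and 5 with Libramed (16.2%), where *Igfbp7* (adjusted p = 0.0211) took the place of *Igf1* (adjusted p = 0.111). Groups of 3 did not overlap for 5 genes with vehicle (33.2% of all symbols) and for 7 with Libramed (34.9%), and 6 mice against 6 did not overlap for 2 genes, *Igfbp3* and *Igfbp4* (13.3% of all symbols). The median difference of the 10 genes over both treatments was 0.04 on the log2 scale, beside 0.01 for all symbols.

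*Igfbp2* was not among them. Its ZT12 minus ZT0 difference was 0.27 with vehicle (SE 0.15, limma adjusted p = 0.301), -0.14 with Libramed (SE 0.25, limma adjusted p = 0.747) and 0.06 over both treatments (95% interval -0.29 to 0.42, limma adjusted p = 0.803). With quantile normalization this last value was -0.056, and so it has no settled direction.

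*Igfbp4* rose from 776, 912 and 819 FPKM at ZT0 to 1284, 1348 and 1359 FPKM at ZT12 with vehicle. With Libramed the ZT0 mice had 847, 760 and 919 FPKM and the ZT12 mice 1334, 1298 and 1431 FPKM. All 6 mice at ZT12 were above all 6 at ZT0. The rise on the log2 scale was 0.67 with vehicle (SE 0.10, limma adjusted p = 0.0105) and 0.69 with Libramed (SE 0.10, limma adjusted p = 0.00835), and the interaction was 0.015 (95% interval -0.275 to 0.305, limma adjusted p = 0.987). The vehicle call did not hold when the third ZT0 mouse, or either the second or the third ZT12 mouse, was left out (limma adjusted p 0.0528 to 0.0587), and over both treatments the rise of 0.68 (limma adjusted p = 1.86e-05) held without any one library. In FPKM the group means rose by ratios of 1.59 and 1.61.

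*Igfbp3* fell. The vehicle mice had 4.46, 4.72 and 4.54 FPKM at ZT0 and 2.94, 2.04 and 2.33 FPKM at ZT12, and the Libramed mice 3.92, 6.43 and 5.44 FPKM at ZT0 and 1.30, 2.71 and 1.68 FPKM at ZT12. Again all 6 mice at one time were on the same side of the 6 at the other. The log2 difference was -0.70 with vehicle (SE 0.11, limma adjusted p = 0.0138) and -1.12 with Libramed (SE 0.21, limma adjusted p = 0.0191). The interaction of -0.42 had an adjusted p of 0.829 by limma, so a difference between treatments was not shown. Each of the within-treatment calls was lost in 3 of 6 fits without 1 library (limma adjusted p up to 0.0601 and 0.0639), while over both treatments the fall of 0.91 (limma adjusted p = 0.000465) held in all 12. *Igfals*, whose protein joins IGFBP3 in the circulating complex, went the opposite way and rose by 0.52 over both treatments (SE 0.10, limma adjusted p = 0.00266), from 71.3 to 114 FPKM in the 6 mice at ZT0 to 110 to 149 FPKM at ZT12.

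*Igf1* rose by 0.27 over both treatments (SE 0.09, limma adjusted p = 0.0314, exact permutation p = 0.02) and *Ghr* by 0.30 (SE 0.08, limma adjusted p = 0.0161, exact permutation p = 0.005). The groups of 6 overlapped for both genes, with *Ghr* at 144 to 196 FPKM at ZT0 and 184 to 237 FPKM at ZT12. Both calls were lost with quantile normalization, where the limma adjusted p was 0.178 for *Igf1* and 0.138 for *Ghr*. That of *Igf1* was lost with the replicate number as a block (limma adjusted p = 0.0507) and in 7 of the 12 fits without 1 library (adjusted p up to 0.0703), those without vehicle ZT0 replicate 1, Libramed ZT0 replicates 1 or 2, vehicle ZT12 replicate 1 or any Libramed ZT12 mouse.

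*Igfbp7* fell by 0.52 on the log2 scale over both treatments (SE 0.10, limma adjusted p = 0.00272), from 49.7 to 70.9 FPKM at ZT0 to 34.5 to 55.8 FPKM at ZT12. It fell by 0.48 with vehicle (limma adjusted p = 0.037) and gave -0.57 with Libramed (limma adjusted p = 0.0732). The vehicle call was lost in 5 of 6 fits without 1 library (limma adjusted p up to 0.132), all but the one without vehicle ZT0 replicate 2. Endothelial markers moved in the same direction. Their 7 genes summed to 28.9 to 45.8 FPKM in the 6 mice at ZT0 and 15.4 to 25.6 FPKM at ZT12. By limma, 5 of the 6 tested fell over both treatments, against 13.8% of all symbols. Of 6 stellate cell and fibroblast markers tested, 5 fell as well, with overlapping sums of 33.7 to 68.8 FPKM at ZT0 and 25.0 to 47.5 FPKM at ZT12. Both sums were mostly 1 gene. In vehicle ZT0, *Clec4g* averaged 22.52 of 35.87 FPKM in the endothelial sum and *Dcn* 41.85 of 51.44 FPKM in the stellate sum. The part of these shifts in the *Igfbp7* and *Igfbp3* values was not tested.

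*Igfbp6* fell by 1.23 on the log2 scale with Libramed (SE 0.15, limma adjusted p = 0.00473), from 5.16, 4.32 and 6.31 FPKM at ZT0 to 1.38, 1.54 and 2.11 FPKM at ZT12. In vehicle mice it was at 3.26, 2.17 and 4.74 FPKM at ZT0 and 0.892, 4.53 and 5.67 FPKM at ZT12, a difference of -0.05 (SE 0.48, limma adjusted p = 0.959). One fit of all 12 libraries, which shares the spread of the vehicle mice, gave the Libramed difference an adjusted p of 0.0553. The 4 mesothelial markers are genes of the cells that cover the liver surface, and 2 of them reached the minimum of 1 FPKM. With Libramed the 4 summed to 4.68 to 6.23 FPKM at ZT0 and 1.68 to 3.27 FPKM at ZT12. With vehicle they summed to 2.49 to 5.55 FPKM at ZT0 and 0.760 to 5.67 FPKM at ZT12. Their part in the *Igfbp6* values was not tested. *Igfbp1* (-0.17) and *Igfbp5* (0.02) had no detectable time difference over both treatments, with limma adjusted p of 0.723 and 0.947.

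**Figure D5:**
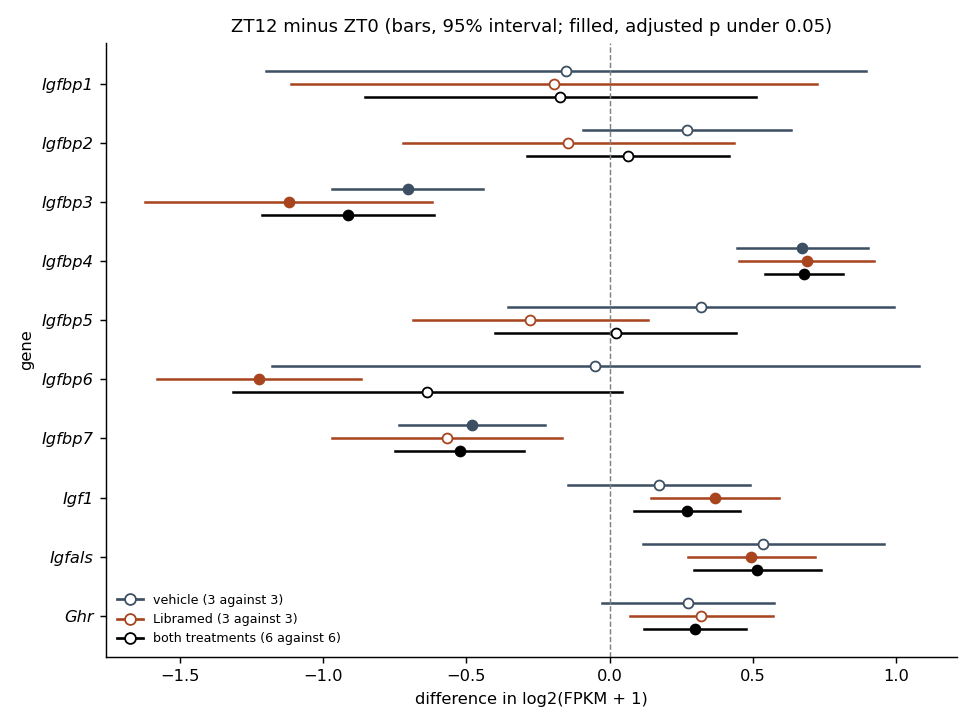
ZT12 minus ZT0 for each gene as a difference in log2(FPKM + 1) (x axis), with vehicle, with Libramed and over both treatments, with bars for the 95% interval from limma and filled circles for an adjusted p under 0.05. Igfbp4 lies near 0.68 in all 3 rows and Igfbp3 between -0.70 and -1.12, while the intervals of Igfbp2 include 0.

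Around the family, 46 genes of the pathway had been listed in 5 groups and 27 passed the minimum level. None passed adjusted p under 0.05 for treatment at either time, over both times or in the interaction by limma. At ZT0, unadjusted p under 0.05 gave 2 higher and 1 lower (9.23% of all symbols). At ZT12 it gave 3 higher and 2 lower (6.74%). It gave 2 higher over both times (10.1%) and 1 lower in the interaction (6.63%). Among the genes of the list with the smallest treatment p over both times were *Srebf1*, the lipogenic factor (log2 difference 0.58, SE 0.26, limma adjusted p = 0.489), and the growth hormone signal transducer *Stat5b* (0.15, SE 0.07, limma adjusted p = 0.494). At ZT0 the 3 smallest p belonged to *Stat5b* (0.21), the protease *Adamts1* (0.30) and the repressor *Bcl6* (-1.07), with limma adjusted p of 0.532 to 0.54. At ZT12 *Srebf1* (0.94) and *Ctgf* (0.36) were among the smallest, each with a limma adjusted p of 0.729.

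Between the times, 6 of these 27 genes rose and 6 fell over both treatments by limma, against 15.9% and 13.8% of all symbols. Among receptors and adaptors, 3 of 5 tested fell: *Irs1* (-0.58) and *Irs2* (-0.51), which couple the insulin and IGF1 receptors to their kinases, and the receptor inhibitor *Grb14* (-0.25). The IGF1 receptor gene *Igf1r* was at group means of 0.0938 to 0.1501 FPKM and *Igf2* at 0.0366 to 0.0696 FPKM, both under the minimum, while *Insr* was at 10.2 to 12.1 FPKM. Of 8 growth hormone signalling genes tested, *Stat5b* fell (-0.34), and of 2 proteases *Adamts1* fell (-0.53). The growth hormone target *Cish* rose by 2.93 with vehicle (SE 0.69, limma adjusted p = 0.043), where its ZT12 mice spread widely around a mean of 24.2 ± 16.8 FPKM. The *Cish* difference was -0.56 with Libramed (limma adjusted p = 0.781) and 1.18 over both treatments (limma adjusted p = 0.333), with an interaction of -3.50 (limma adjusted p = 0.725). *Ptpn1*, a phosphatase of insulin signalling, rose by 0.31 with Libramed (limma adjusted p = 0.0461).

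Of 9 insulin- and fasting-regulated hepatocyte genes tested, 6 rose and 1 fell over both treatments, against 15.9% and 13.8% of all symbols. The gluconeogenic enzymes *Pck1* and *G6pc* rose by 1.26 and 1.46, *Foxo1* and *Foxo3*, the factors that insulin excludes from the nucleus, by 0.61 and 0.58, and the fatty acid oxidation genes *Ppara* and *Cpt1a* by 0.40 and 0.66, while *Fgf21*, a fasting-induced hormone, fell by 1.21. *Srebf1* rose by 1.04 with Libramed (limma adjusted p = 0.0183). None of the 3 genes tested with an IGFBP-like domain passed the threshold (1 had an unadjusted p under 0.05 over both treatments). Within the same 12 livers, *Igfbp1*, which also responds to insulin, had a time difference of -0.17 (95% interval -0.86 to 0.51).

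The 5 symbols whose log2(FPKM + 1) followed that of *Igfbp2* most closely over the 12 libraries were *1700021F05Rik* (Pearson r = 0.91), the joint entry *Camta2,Spag7* (0.91), *Uqcrh* (0.89), *Shfm1* (0.88) and *Drap1* (0.88). These correlations are descriptions over points that share libraries and groups, picked as the highest among 9806 symbols. The treatment differences of these 5 over both times ranged from 0.18 to 0.35 on the log2 scale, each smaller than that of *Igfbp2*, with limma adjusted p of 0.313 to 0.493. Among the other 9 genes of the axis, r with *Igfbp2* ran from -0.26 (*Igfals*) to 0.37 (*Igfbp5*).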

How the data were processed

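RNA from 12 livers was sequenced, and the authors deposited one table of FPKM values per gene symbol and library. The submitters' processing notes name TopHat and Cuffnorm with mm10 (GRCm38), whereas the study's methods describe ELAND alignments of unique reads and RPKM, and the library kit also differs between the labels (unstranded) and the methods (stranded), so the steps behind the deposited FPKM are not settled. Strand was not assumed. Depth is unknown. Of 24138 lines, 289 repeated a symbol of which the one with the highest mean was used. Symbols with a mean of at least 1 FPKM were tested on log2(FPKM + 1), a scale that understates changes of low genes, with limma 3.58.1 in R 4.3.3 (mean-variance trend, two-sided, Benjamini-Hochberg adjustment over 9806 symbols). Pairwise comparisons used 6 libraries, and comparisons over both times or treatments used additive models of 12. Exact permutation tests covered single genes (20 or 400 arrangements). Alternatives were the pseudocount, the minimum level, the trend, scaling, one joint fit, Cyber-T (window 101, prior weight 10), the replicate number as a block and each library left out. The labels call the replicates biological. Named were the 10 genes, pathway genes past the threshold or with the 3 smallest p of each treatment comparison, and the 5 symbols most like *Igfbp2*. One pathway gene that the rule names is not reported here. The genes, lists and tests were chosen with earlier results of these data known. The fit was tested on simulated data. Promoters came from RefSeq (GRCm38.p6), with an entry for all 10 genes, and gene positions from GENCODE (GRCm38). Figures were drawn with matplotlib 3.10.9.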

Additional observations from a re-analysis of the deposited data

How the results depend on the processing

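The treatment difference of *Igfbp2* kept its direction at each time and over both times under all alternatives, with limma adjusted p over both times of 0.14 to 0.552. Cyber-T brought the *Igfbp2* difference at ZT0 (1.042) under the threshold, with 69 symbols called against 0 by limma there and 23 against 0 at ZT12. *Igfbp2* over both treatments between the times changed sign with quantile normalization (-0.056), and the cause was not tested. *Igfbp2* against *Igfbp6* missed 0.05 in the exact permutation test with a pseudocount of 0.1 (0.884, p = 0.135) and with quantile normalization (0.851, p = 0.055), and lay between 0.698 and 1.197 with 1 library left out. *Igfbp2* against *Igfbp5* lay between 0.383 and 0.705 and passed without Libramed ZT0 replicate 2 or vehicle ZT12 replicate 1. Other signs that changed were, at ZT12, *Ghr* with median-ratio scaling (0.013), *Igfbp4* and *Igfbp5* with quantile normalization (-0.007 and 0.007), and in the interaction *Igfbp4* (-0.102) and *Ghr* (-0.015) with quantile normalization. Removing the trend on transcript length and GC content, an alternative chosen after seeing the data with values for 94.8% of the symbols, gave *Ghr* 0.073 at ZT12 and 0.028 over both times, *Igf1* 0.007 over both times, *Igfbp5* -0.006 between the times and *Igfbp4* -0.013 in the interaction. Leaving out 1 library at a time changed the sign of values near 0 on the log2 scale, none of them called. These were, with their lowest and highest values, for treatment at ZT0, *Ghr* (-0.173 to 0.044), *Igfbp1* (-0.516 to 0.287) and *Igfbp4* (-0.055 to 0.081). For treatment at ZT12, *Ghr* (-0.093 to 0.087), *Igf1* (-0.024 to 0.108), *Igfbp1* (-0.487 to 0.213), *Igfbp4* (-0.015 to 0.055), *Igfbp5* (-0.248 to 0.142) and *Igfbp7* (-0.063 to 0.275). For treatment over both times, *Ghr* (-0.077 to 0.019), *Igf1* (-0.099 to 0), *Igfbp1* (-0.327 to 0.03), *Igfbp3* (-0.143 to 0.03), *Igfbp4* (-0.011 to 0.05) and *Igfbp6* (-0.228 to 0.176). For time with vehicle, *Igfbp1* (-0.534 to 0.27) and *Igfbp6* (-0.398 to 0.511). For time with Libramed, *Igfbp1* (-0.475 to 0.195) and *Igfbp2* (-0.401 to 0.019). For time over both treatments, *Igfbp1* (-0.345 to 0.012), *Igfbp2* (-0.027 to 0.159) and *Igfbp5* (-0.094 to 0.123). For the interaction, *Ghr* (-0.045 to 0.172), *Igfals* (-0.19 to 0.144), *Igfbp1* (-0.463 to 0.347), *Igfbp4* (-0.056 to 0.08) and *Igfbp7* (-0.255 to 0.083). Correlations between libraries gave little sign of pairing by replicate number. Of 18 same-numbered pairs, 4 correlated over 0.1 (r -0.279 to 0.341), and 3 of 12 libraries correlated best with their own number. Within the family, however, replicate 2 had the lowest ratio of *Igfbp2* to *Igfbp4* in every group (0.313, 0.554, 0.214 and 0.335). Replicate 3 had the highest *Igfbp1* in every group. These correlations cannot exclude a shared block, and whether the numbers mark one is not known. With the number as a replicate block, 279 symbols were called between the times with vehicle against 1020 and 709 with Libramed against 1212, 0 and 4 of the 10 genes among them. The *Igfbp2* treatment difference over both times had an adjusted p of 0.161 under the block. Over both treatments the block called 5 of the 10 genes against 6, losing *Igf1* (limma adjusted p = 0.0507), and 2895 of the 9806 symbols against 2910. Calls between the times within one treatment rest on 3 mice against 3. *Igf1* with Libramed was lost without any one library (adjusted p 0.0819 to 0.133), *Igfbp7* with vehicle in 5 of 6 such fits (up to 0.132) and *Igfbp3* and *Igfbp4* with vehicle in 3 of 6 each (up to 0.0601 and 0.0587), vehicle ZT0 replicate 3 and vehicle ZT12 replicates 2 and 3 each ending all 3 of these vehicle calls. With Libramed, *Igfbp3* was lost in 3 of 6 fits (without Libramed ZT0 replicate 2 or 3 or ZT12 replicate 3) and *Igfals* in 4 of 6 (without Libramed ZT0 replicate 1 or 2 or ZT12 replicate 2 or 3), with adjusted p up to 0.0639 and 0.0746. *Igfbp6* over both treatments passed without vehicle ZT12 replicate 3 (-0.857, adjusted p = 0.0396), which has the highest vehicle value. Without a minimum level 515 symbols were called with vehicle and 639 with Libramed, and one fit of all 12 libraries called 1539 with vehicle. *Igfbp3*, *Igfbp4*, *Igfbp7* and *Igfals* kept their calls over both treatments in every alternative that could be fitted. A minimum mean of 5 FPKM left *Igfbp3*, *Igfbp5* and *Igfbp6* untested. With 3 mice a group and unknown read totals, an interval that includes 0 does not show that a gene was unchanged.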
